A study of Mus musculus with 16 samples.

Results

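The genes described here are 10 members of the Polycomb and trithorax groups of chromatin regulators that are mutated or altered in leukemia: Ezh2, Ezh1, Eed, Suz12, Bmi1, Asxl1, Asxl2, Bap1, Kmt2a and Kdm6b. They were listed by name, with earlier results of these data known and no measured value in the rule, and are 10 of 21911 protein-coding genes of the GENCODE M21 annotation. Their chromatin was read as ATAC-seq peaks in bone marrow hematopoietic stem and progenitor cells (HSPCs) of mice lacking p300, Tet2 or both. ATAC-seq marks DNA that is open to a transposase. Peaks of 16 libraries that shared at least 1 bp were merged into 296215 regions, of which 178 lay in the 10 gene bodies or within 10 kb of them.

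There were 4 libraries of each genotype, named WT, P300KO, TET2KO and P300KO_TET2KO. Per the methods of the study, every mouse carried floxed Ep300 alleles (Ep300 fl/fl) and had received poly(I:C) as a young adult, so the WT mice were Ep300 fl/fl mice without Cre. The P300KO mice also carried Mx1-Cre, the TET2KO mice were Ep300 fl/fl;Tet2-/-, and the P300KO_TET2KO mice carried Mx1-Cre, Ep300 fl/fl and Tet2-/-. Mx1-Cre is switched on by interferon, which poly(I:C) evokes, and is active in blood cells and in other tissues, whereas Tet2 was absent from the germ line on. Each library held cells of 2 mice of the same genotype, which the labels call age-matched without giving the age. The mice were on a C57BL/6 background as far as the methods say. Unless another time was indicated, experiments were run 2 weeks after poly(I:C), and the methods indicate none for these libraries.

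Polycomb proteins keep genes silent. The PRC2 complex, built of Eed, Suz12 and either Ezh2 or Ezh1 as the enzyme, methylates lysine 27 of histone H3, and PRC1, to which Bmi1 belongs, ubiquitinates histone H2A. Bap1 removes that ubiquitin together with Asxl1 or Asxl2. Trithorax proteins such as Kmt2a (also called Mll) methylate lysine 4 of histone H3 at active genes, and Kdm6b (Jmjd3) removes methyl groups from lysine 27. In blood, losses of Ezh2 and Asxl1 and fusions of Kmt2a are recurrent in myelodysplastic syndrome and leukemia, and Bmi1 is known for its part in stem cell self-renewal.

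The lists hold no read counts, so the depth of each library is unknown and the length of its list stands in for it. For every genotype, the labels of replicates 1 and 2 name an IDR peak list of that genotype (IDR keeps peaks that recur between replicates), those of replicates 3 and 4 name none, and nothing says what else set them apart. These are called deposit set 1, with 86039 to 110055 peaks per library, and deposit set 2, with 130610 to 137335 peaks. To set libraries of unequal length side by side, each peak was given its rank percentile within its own list by the −log10 p of the peak caller, where 100 is the strongest. Promoter peaks of Kit, Cd34, Gata2, Meis1, Mecom, Hlf and Runx1, markers of stem and progenitor cells, were in 16 of 16 libraries and that of Ly6a was in 15. Of 7 markers of mature cells given here, Ly6g had a promoter peak in 0 libraries, Cd79a in 3, Cd3e in 5 and Hba-a1 in 5, whereas Cd3d, Ltf and Itgam had one in 16. The promoters of Ep300 and Tet2 themselves had a peak in all 16 libraries, at percentiles from 89.5 to 96.3 and from 89.0 to 93.7. A promoter peak does not read out the deletion, which was not checked here.

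All 10 loci carried a region that was open in every library. Of the 178 regions, 28 (15.7%) had a peak in all 16 libraries, 63 in 2 to 15 libraries and 87 (48.9%) in only 1 library. Across the genome these shares were 13.3% for all 16 libraries and 45.6% for 1 library. The 28 shared regions were strong, with a median percentile of 88.4, and the 87 single regions were weak, with a median of 11.1. By position, 17 regions overlapped 1 kb either side of a coding start of the gene itself, 4 overlapped a neighbour's promoter, 106 were intragenic and 51 lay in the flanks. Of the 87 single-library regions, 68 came from deposit set 1, 15 of them from WT replicate 1, 18 from WT replicate 2 and 12 from P300KO replicate 2. By gene, Asxl1 and Kmt2a held 19 each, Ezh2 held 16 and Bmi1 held 0. Of 9 regions missing from exactly 1 library, the missing library was WT replicate 1 for 6 and P300KO replicate 2 for 3.

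**Figure D1:**
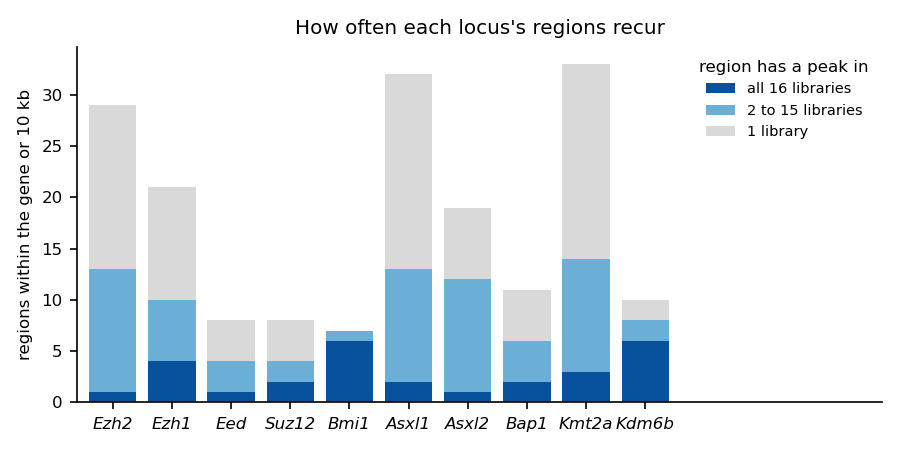
Bars give the number of regions within each gene or 10 kb of it (vertical axis), stacked by whether the region had a peak in all 16 libraries, in 2 to 15 or in 1. Asxl1 and Kmt2a held 32 and 33 regions with 2 and 3 found in all libraries, whereas the short Bmi1 and Kdm6b genes held 7 and 10 regions, 6 of them in all libraries.

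The loci differed in what was open besides the promoter. Ezh2, the main PRC2 enzyme of dividing cells, had 29 regions over a gene of 65.2 kb, but only its promoter was shared by all 16 libraries. Asxl2, with 19 regions in a gene of 80.0 kb, and Eed, with 8 regions, likewise shared only the promoter. Bmi1, a gene of 9.61 kb, shared 6 of 7 regions, among them its neighbour Commd3's promoter and 3 flanking regions downstream. Kdm6b, a gene of 15.2 kb, shared 6 of 10 regions. Per 10 kb of gene and flanks, Bmi1 and Kdm6b held 2.03 and 1.71 shared regions, and Ezh2 and Asxl2 held 0.117 and 0.100.

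The promoters of 9 of the 10 genes ranked above the median coding promoter. Kdm6b was among the 9 only through a region at a start of another annotation (RefSeq), chosen after the data were seen. All other promoters were placed at GENCODE starts. Over 16 libraries, the strongest promoter region of each gene had a mean percentile of 99.4 ± 0.341 (SD, n = 16 here and in this paragraph) for Asxl2, 99.1 ± 0.687 for Asxl1, 98.9 ± 0.393 for Suz12 and 98.8 ± 0.441 for Ezh2. Kmt2a followed with 97.1 ± 2.13, Eed with 96.5 ± 1.66 and Bap1 with 95.8 ± 1.66. Kdm6b, with 92.8 ± 2.84, and Ezh1, with 92.3 ± 2.14, came next, and Bmi1 was last with 77.6 ± 5.60. The median of 17028 coding promoters with a region was 90.7. Asxl2 stood above 96.6% of these promoters and Bmi1 above 31.5%. The top of the order was not resolved, since Asxl2 exceeded Asxl1 in 10 of 16 libraries, Asxl1 exceeded Suz12 in 10, Suz12 exceeded Ezh2 in 11 and Ezh2 exceeded Kmt2a in 8. Bap1 exceeded Kdm6b in 15 of 16 libraries and Ezh1 exceeded Bmi1 in 16 of 16, by 14.7 ± 6.88 percentile points.

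**Figure D2:**
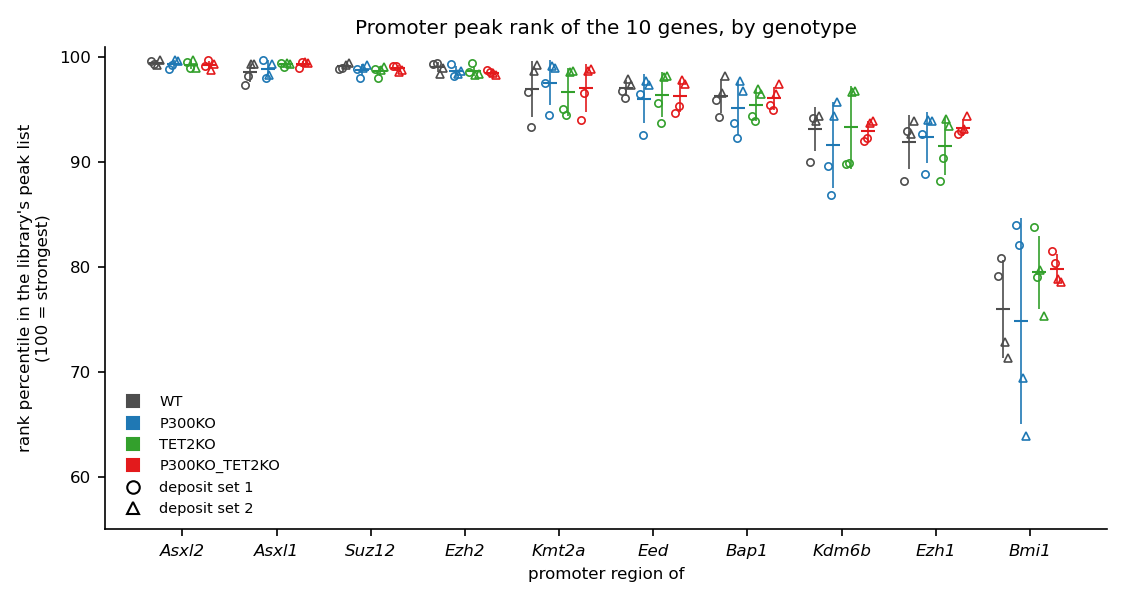
Rank percentile of the promoter peak within each library's list (vertical axis, 100 = strongest, drawn from 55 up) for the 10 genes, with circles for deposit set 1, triangles for deposit set 2 and bars for the mean and SD of 4 libraries per genotype. Asxl2, Asxl1, Suz12 and Ezh2 lie above 97 in every library, Bmi1 lies lowest, and the genotypes overlap at each gene.

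The promoter of Kdm6b was placed at a RefSeq start. No region lay within 1 kb of its 1 coding start in GENCODE M21, and 4 lay within 3 kb, 1 of them in all libraries. The region used here, chr11:69417530-69419784, covers a start of Kdm6b in the RefSeq annotation of the same build. That choice was made after the data were seen. The shared region within 3 kb, chr11:69408558-69411512, lies inside the gene over further RefSeq starts, at a mean percentile of 90.6. With it as the promoter, Kdm6b would lie just below the median coding promoter, and the p300 effect would be 0.368 points in place of −0.904. Bmi1 also had more than 1 promoter region in all libraries. The stronger, chr2:18680799-18681549, lies at internal starts, and chr2:18676387-18677470 had a mean percentile of 76.6, below the neighbouring Commd3 promoter at 90.3.

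The strongest and the weakest promoters were read for sequence at their summits. Each run is 201 bases of the mm10 reference centred on the median summit, on the strand of the gene, and capitals mark matches to any of 7 short motifs on either strand: CCGGAAG (Ets), GGGCGGG (Sp and Klf), CCAAT (NF-Y), ATGGCGG (Yy1), AGATAA (for the Gata factors), TGTGGT (Runx) and CACGTG (E-box). Shown are the strongest promoters, Asxl2 (chr12:3426690-3426890, plus strand), Asxl1 (chr2:153345583-153345783, plus strand), Suz12 (chr11:79992923-79993123, plus strand) and Ezh2 (chr6:47595036-47595236, minus strand). The weakest, Bmi1 (chr2:18681010-18681210, plus strand), and the RefSeq start region of Kdm6b (chr11:69418875-69419075, minus strand) follow for comparison.
Asxl2: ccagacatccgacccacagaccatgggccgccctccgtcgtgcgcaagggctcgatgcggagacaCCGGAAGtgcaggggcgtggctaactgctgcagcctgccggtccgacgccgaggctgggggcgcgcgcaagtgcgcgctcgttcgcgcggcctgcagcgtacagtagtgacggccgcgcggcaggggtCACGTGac
Asxl1: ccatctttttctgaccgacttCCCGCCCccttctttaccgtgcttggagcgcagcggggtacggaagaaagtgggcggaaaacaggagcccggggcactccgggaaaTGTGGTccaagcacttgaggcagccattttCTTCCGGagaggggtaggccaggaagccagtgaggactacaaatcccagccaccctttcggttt
Suz12: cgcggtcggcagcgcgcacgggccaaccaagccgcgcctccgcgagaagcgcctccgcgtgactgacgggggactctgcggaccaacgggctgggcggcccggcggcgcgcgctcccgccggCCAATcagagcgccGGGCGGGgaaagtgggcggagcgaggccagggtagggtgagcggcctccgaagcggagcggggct
Ezh2: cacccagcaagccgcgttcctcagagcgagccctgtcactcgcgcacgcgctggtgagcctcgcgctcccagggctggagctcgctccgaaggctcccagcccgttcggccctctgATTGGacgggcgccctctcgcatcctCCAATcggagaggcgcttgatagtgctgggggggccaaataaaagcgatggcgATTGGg
Bmi1: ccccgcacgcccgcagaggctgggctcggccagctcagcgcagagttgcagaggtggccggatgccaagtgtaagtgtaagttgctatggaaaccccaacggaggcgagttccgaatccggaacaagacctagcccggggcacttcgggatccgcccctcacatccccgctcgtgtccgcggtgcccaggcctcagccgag
Kdm6b: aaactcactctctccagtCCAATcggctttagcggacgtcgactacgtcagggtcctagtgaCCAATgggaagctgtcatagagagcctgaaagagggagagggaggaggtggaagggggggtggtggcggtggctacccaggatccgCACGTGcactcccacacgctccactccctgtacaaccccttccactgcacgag

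Ezh2 held 3 NF-Y strings within these 201 bases and Kdm6b held 2, and Suz12 held 1 beside an Sp and Klf string. Asxl1 and Asxl2 each held 1 Ets string. The Bmi1 window held none of the 7 strings. Over the 10 genes, the NF-Y string was in 3 windows, Sp and Klf in 5, E-box in 3, Ets in 2, Runx in 1 and Yy1 and Gata in 0. Of the 17028 coding promoters, windows of the same length held these strings in 29.4%, 39.7%, 7.22%, 13%, 10%, 6.16% and 3.17%, in the same order. The pair of Sp and Klf strings at Bap1 overlapped each other, and no other strings overlapped. The windows of the 10 genes held 10 to 35 CpG with a median of 23, against a median of 16 for coding promoters. The count was above that median in 8 windows and below it at Kdm6b (10 CpG) and Asxl1 (11 CpG). The Kdm6b window was centred at −835 bases (upstream) from the nearest RefSeq start and held none of its RefSeq starts. Their GC content ran from 58.2% at Asxl1 to 77.6% at Suz12.

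Neither p300 loss nor Tet2 loss moved the promoter rank of any of the 10 genes past the threshold. The test was limma on the log2 odds of the percentile with deposit set as a covariate, over 39310 regions found in all libraries, with Benjamini-Hochberg adjustment over all of them. The 7 contrasts share libraries and are not independent. Of the 10 promoters, 0 passed an adjusted p of 0.05 in any of them, where 0% to 1.3% of all regions did, depending on the contrast. The smallest unadjusted limma p was 0.0654, for a higher Bmi1 promoter with Tet2 loss. There the mean percentile was 79.7 over the 8 libraries without Tet2 and 75.4 over the 8 with it, with an exact two-sided permutation p of 0.054 within deposit set and p300 genotype and an adjusted p of 0.469 from limma. In bulk cells, a region open in fewer cells and a region less open in each cell cannot be told apart.

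The Bmi1 promoter showed the widest spread of the 10. Its percentiles were 79.1, 80.9, 72.8 and 71.3 in WT replicates 1 to 4, and 84.0, 82.1, 69.4 and 63.9 in P300KO. They were 83.8, 79.1, 79.7 and 75.4 in TET2KO and 81.5, 80.4, 78.9 and 78.6 in P300KO_TET2KO. Within each genotype the lowest values came from deposit set 2, whose mean was 73.7 against 81.4 in set 1, and the genotypes overlapped. The other promoters mostly moved the other way between the sets: the mean for Kmt2a was 95.3 in set 1 and 98.9 in set 2, and for Kdm6b 90.6 and 95.0.

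Among the PRC2 genes, Ezh2 had promoter percentiles of 99.1 ± 0.466 (WT), 98.7 ± 0.524 (P300KO), 98.7 ± 0.493 (TET2KO) and 98.6 ± 0.209 (P300KO_TET2KO, all SD, n = 4). Suz12, which holds PRC2 together, had 99.2 ± 0.265, 98.8 ± 0.522, 98.7 ± 0.437 and 99.0 ± 0.297 in the same order. Eed, which binds the methylated histone, had 97.1 ± 0.786, 96.1 ± 2.35, 96.4 ± 2.15 and 96.3 ± 1.52. Ezh1, the weaker enzyme that persists in resting cells, had 91.9 ± 2.57, 92.4 ± 2.42, 91.6 ± 2.77 and 93.3 ± 0.770. For all 4 genes the p300 effect over both Tet2 backgrounds lay between −0.557 points at Eed and 1.08 points at Ezh1, with exact permutation p from 0.177 to 0.792. Without 1 library the value at Eed ran from −0.868 to −0.167 and at Ezh1 from 0.65 to 1.52, and with a −log10 q of at least 2 they were −0.0999 and 3.06.

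Among the genes of the Bap1 deubiquitinase, the promoter percentile of Asxl1 was 98.6 ± 0.972 (WT), 98.9 ± 0.842 (P300KO), 99.4 ± 0.176 (TET2KO) and 99.4 ± 0.288 (P300KO_TET2KO, all SD, n = 4). The difference with Tet2 loss was 0.633 points, with an exact permutation p of 0.054 and a permutation p adjusted over all regions of 0.437. Asxl2 stayed between 98.8 and 99.8 in all 16 libraries, and Bap1 between 92.3 and 98.3. Kmt2a ranged from 93.3 to 99.2 and Kdm6b from 86.9 to 96.8, and the genotypes overlapped at both. At Kdm6b the P300KO_TET2KO libraries of deposit set 2 had 93.7 and 94.0 and the TET2KO libraries of that set 96.7 and 96.8, so that set 2 alone gave a difference of −2.94 points with a limma adjusted p of 0.0159, where 1.56% of all regions were called. In set 1 alone the difference was 2.28 points with a limma adjusted p of 1, and over both sets it was −0.33 points with 0.973.

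The remaining shared regions of the loci gave 0 calls as well. Of the 28 shared regions, 0 passed the adjusted threshold in each contrast. Over all 39310 regions, percent called was 0.0127% for P300KO_TET2KO against TET2KO, 0.226% for P300KO against WT, 0% for TET2KO against WT and 0.0789% for P300KO_TET2KO against P300KO. It was 1.3% for p300 loss over both Tet2 backgrounds, 0.361% for Tet2 loss over both p300 backgrounds and 0% for the difference of the p300 effect between Tet2 backgrounds. At an unadjusted limma p under 0.05, p300 loss gave 4 of the 28 (14.3%) against 14.2% of all regions, and Tet2 loss gave 3 (10.7%) against 11.4%. P300KO_TET2KO against TET2KO gave 1 of 28 (3.57%) against 6.25%, and P300KO against WT gave 2 (7.14%) against 14.1%. TET2KO against WT gave 2 of 28 against 9.32%, P300KO_TET2KO against P300KO 2 against 7.34%, and the difference of p300 effects 2 against 4.65%.

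Among the 28 shared regions, the lowest limma p belonged to a region downstream of Kdm6b that is the promoter of the neighbouring genes Naa38 and Tmem88, chr11:69396609-69397254. Its percentiles were 56.4, 71.3, 61.6 and 57.8 in WT and 68.0, 58.8, 74.9 and 72.7 in P300KO. In TET2KO they were 70.7, 75.1, 62.0 and 66.1, and in P300KO_TET2KO 80.5, 80.7, 78.1 and 77.3. All 4 double-mutant libraries lay above all others, and the other genotypes overlapped. The share of all regions with that order was not counted, and this region was picked for its low p. Against TET2KO alone, 1.54% of all regions were higher without overlap in P300KO_TET2KO. The p300 effect was 8.78 points (log2 odds 0.62, SE 0.20, limma adjusted p = 0.142) and the Tet2 effect was 8.63 points (log2 odds 0.60, SE 0.20, limma adjusted p = 0.246). The exact permutation p were 0.017 and 0.00463, where 0.00154 is the smallest possible. Adjusted over all regions, these permutation p were 0.211 and 0.187. For P300KO_TET2KO against TET2KO the difference was 10.7 points (log2 odds 0.80, SE 0.28, limma adjusted p = 0.589). In deposit set 2 alone the p300 effect was 13.9 points with a limma adjusted p of 0.00198, where 7.13% of all regions were called, and in deposit set 1 alone it was 3.68 points with 0.841. In set 2 alone this region was also called in P300KO_TET2KO against TET2KO (13.6 points) and in P300KO against WT (14.1 points), where 1.56% and 2.28% of all regions were. With percentiles taken among the shared regions it was 13.3 points with a limma adjusted p of 0.0498, where 2.44% of all regions were called. The region is shown by the reference around its summit (chr11:69396961-69397161, minus strand), where none of the 7 strings occurs.
Naa38 and Tmem88 promoter: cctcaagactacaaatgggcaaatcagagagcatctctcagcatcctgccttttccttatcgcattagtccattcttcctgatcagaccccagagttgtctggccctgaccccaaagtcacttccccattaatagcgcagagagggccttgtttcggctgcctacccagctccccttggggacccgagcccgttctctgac

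In Ezh1, an intronic region at chr11:101211786-101212528, 14326 bases from the nearest coding start, was open in all libraries. WT had percentiles of 58.7, 39.4, 81.3 and 84.0, and P300KO had 75.1, 66.7, 82.6 and 79.5. TET2KO had 71.8, 64.0, 81.3 and 82.1, and P300KO_TET2KO had 77.0, 74.7, 84.7 and 85.5. Set 2 libraries were the higher pair in every genotype. The p300 effect was 7.90 points (log2 odds 0.53, SE 0.22, limma adjusted p = 0.275), but 14.9 points in deposit set 1 alone and 0.892 in deposit set 2 alone. Upstream of Ezh1, the region chr11:101231804-101232924 had 84.1, 91.4, 86.4 and 87 in WT and 90.1, 89.5, 88.9 and 88.5 in P300KO. It had 87.9, 86.9, 85.0 and 88.2 in TET2KO and 89.0, 89.0, 89.8 and 91.2 in P300KO_TET2KO, so the double mutants did not overlap with TET2KO. The p300 effect there was 2.40 points with a limma adjusted p of 0.288. A further intronic region of Ezh1, chr11:101200989-101201586, was lower in P300KO than in WT by 14.1 points on average, with means of 53.0 ± 12.2 and 67.1 ± 5.28 (SD, n = 4) and a limma adjusted p of 0.286. There P300KO_TET2KO was higher than TET2KO by 3.88 points (limma adjusted p = 0.999). The difference of the p300 effect between Tet2 backgrounds was 18.0 points (limma adjusted p = 0.936).

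At Kmt2a, a region with its summit 1474 bases upstream of the start, chr9:44882602-44883246, had a lower mean in each of the 3 mutant genotypes than in WT. Its percentiles were 87.6, 86.0, 84.7 and 84.8 in WT and 80.5, 77.0, 81.6 and 83.7 in P300KO, which did not overlap. They were 79.7, 77.7, 85.6 and 84.1 in TET2KO and 81.4, 80.9, 79.3 and 82.8 in P300KO_TET2KO. The difference of P300KO from WT was −5.06 points (log2 odds −0.52, SE 0.19, limma adjusted p = 0.235) and that of TET2KO from WT was −3.97 points (limma adjusted p = 0.532). The Kmt2a promoter itself, 97.0 ± 2.67 in WT and 97.6 ± 2.15 in P300KO (SD, n = 4), showed no such order.

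**Figure D3:**
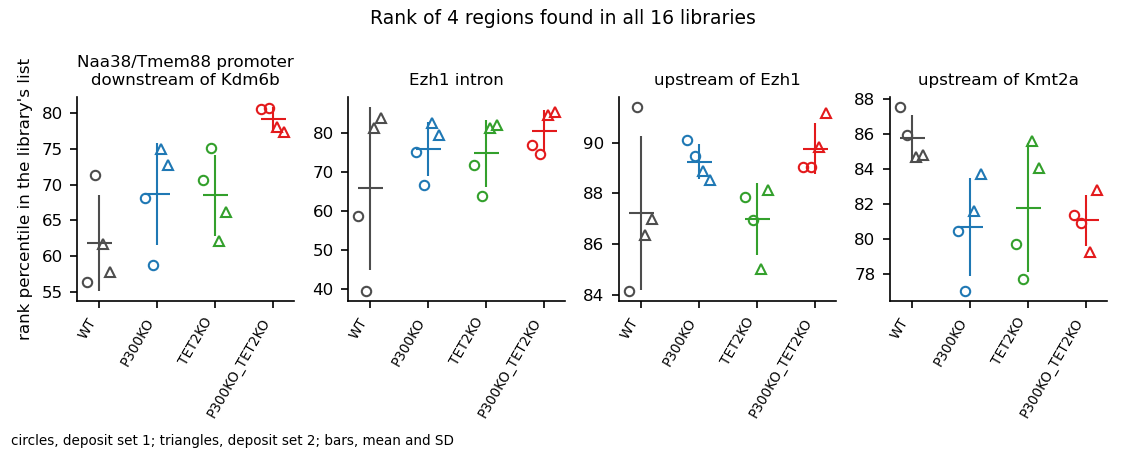
Rank percentile in each library's list (vertical axes, which differ between panels) of 4 regions found in all 16 libraries, with circles for deposit set 1, triangles for deposit set 2 and bars for the mean and SD of 4 libraries per genotype. The 4 P300KO_TET2KO libraries lie highest at the Naa38 and Tmem88 promoter, between 77.3 and 80.7, and WT lies highest on average upstream of Kmt2a, and none of the 4 regions passed the adjusted threshold.

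In the Bmi1 and Kdm6b loci, the mean rank of 2 strong regions was lower with Tet2 loss, and neither passed the threshold. The Commd3 promoter, chr2:18671844-18673138, had means of 91.4 ± 0.506 (WT), 91.7 ± 2.61 (P300KO), 88.2 ± 3.03 (TET2KO) and 90 ± 1.76 (P300KO_TET2KO, all SD, n = 4). The Tet2 effect was −2.44 points with a limma adjusted p of 0.317 and an exact permutation p of 0.0386. Inside Kdm6b, the region chr11:69401137-69401843 gave a Tet2 effect of −2.29 points with a limma adjusted p of 0.349. Downstream of Bmi1, P300KO_TET2KO minus TET2KO was −9.31 points at chr2:18690194-18690698, with a limma adjusted p of 0.899. That difference was −15.6 points in deposit set 1 alone and −3.04 in set 2 alone. The Cyb5d1 and Naa38 promoter, chr11:69395032-69396414, differed by −1.48 points between P300KO_TET2KO and P300KO (the first minus the second) with a limma adjusted p of 0.569. It had 95.0, 95.6, 94.8 and 94.9 in P300KO_TET2KO and 95.9, 96.3, 96.0 and 95.8 in TET2KO, so the double mutants lay lower without overlap (limma adjusted p = 0.946). Of the 28 shared regions, P300KO_TET2KO did not overlap with TET2KO at 2 that were higher (the Naa38 and Tmem88 promoter and the one upstream of Ezh1) and at this 1 that was lower, against 1.54% and 0.903% of all regions. P300KO did not overlap with WT at 0 that were higher and 1 that was lower, upstream of Kmt2a, against 0.649% and 2.12%.

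The number of open regions in a locus was the second measure, and Ezh2 stood first in it. The Ezh2 locus held 4, 6, 6 and 7 regions in WT replicates 1 to 4 and 4, 4, 10 and 11 in P300KO. It held 4, 2, 7 and 9 in TET2KO and 8, 10, 14 and 11 in P300KO_TET2KO. Within each deposit set both double-mutant libraries exceeded both TET2KO libraries, but the share of all genes with that order was not counted. Over the sets the groups overlapped, and set 2 held 9.38 regions per library against 5.25 in set 1. The double mutants had 10.8 ± 2.50 regions and TET2KO 5.50 ± 3.11 (SD, n = 4), a difference of 5.25 regions (log2 of regions + 1: 0.97, SE 0.23). The limma adjusted p over 17914 coding genes was 0.367. The p300 effect over both backgrounds was 3.38 regions, with means of 9 and 5.63, an exact permutation p of 0.0139 and a limma adjusted p of 0.301.

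**Figure D4:**
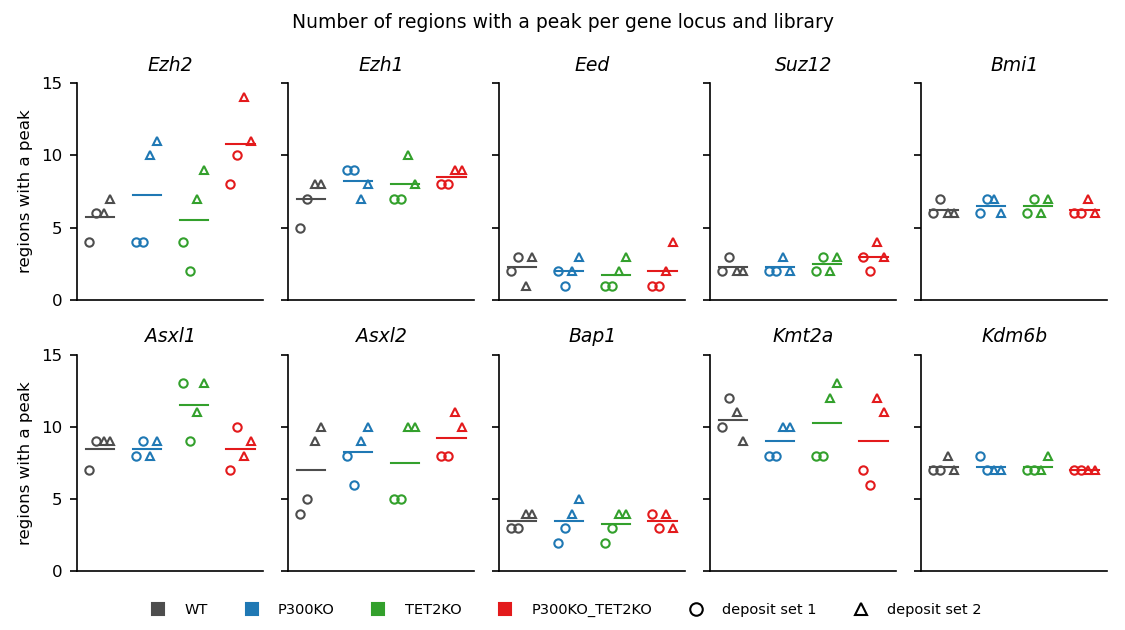
Number of regions with a peak in each locus (vertical axes) for each of 16 libraries, with circles for deposit set 1, triangles for deposit set 2 and lines for the mean of 4 libraries per genotype. Ezh2 has a mean of 5.50 in TET2KO and 10.8 in P300KO_TET2KO and Asxl1 is highest in TET2KO, whereas Bmi1 and Kdm6b hardly vary.

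The uncalled difference at Ezh2 lay among the weaker peaks. With the strongest 50000 peaks of every list, the difference at Ezh2 was 0 regions and the p300 effect 0.125, while a −log10 q of at least 2 kept 4.5 regions of difference with a limma adjusted p of 0.416. The lists of the double mutants were longer than those of TET2KO in deposit set 1 (96986 and 98478 against 91908 and 93922 peaks) and shorter in set 2 (131832 and 130610 against 137335 and 132155 peaks), and the part of list length in the count was not tested. One intronic region, chr6:47583463-47583722, had a peak in 4 of 4 P300KO_TET2KO libraries and 0 of 4 TET2KO libraries, and in 2 of 4 WT and 2 of 4 P300KO libraries, both of the latter pairs from deposit set 2. Where present it was faint, with percentiles of 7.55, 19.2, 19.5 and 15.5 in the double mutants, 5.45 and 15.2 in WT and 12.4 and 9.16 in P300KO. Its sequence is shown because it was the only region of the 10 loci with a peak in all 4 libraries of one group and in none of the other, over 4 pairs of genotypes.
Ezh2 intron: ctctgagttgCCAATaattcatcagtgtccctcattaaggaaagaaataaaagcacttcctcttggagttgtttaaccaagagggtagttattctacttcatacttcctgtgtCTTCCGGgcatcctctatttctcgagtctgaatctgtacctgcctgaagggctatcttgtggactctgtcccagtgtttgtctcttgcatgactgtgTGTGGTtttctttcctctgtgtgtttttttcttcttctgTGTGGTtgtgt

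These 260 bases, on the minus strand and hence in the direction of Ezh2, held 1 NF-Y, 1 Ets and 2 Runx strings, marked in capitals, and 2 CpG. Their GC content was 42.7%, against 66.7% under the Ezh2 promoter summit.

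**Figure D5:**
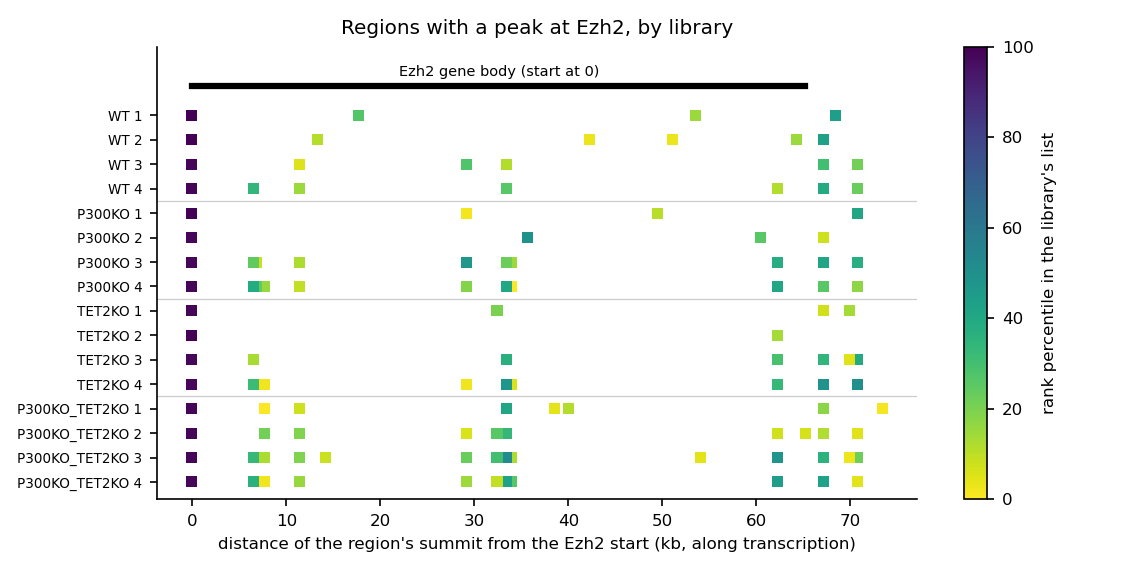
Regions with a peak at Ezh2 in each of 16 libraries (rows), placed by the distance of the region's summit from the Ezh2 start in kb along transcription (horizontal axis) and coloured by rank percentile in the library's list. The promoter at 0 is strong in every row, and the intronic and downstream regions are weak and appear more often in P300KO_TET2KO and in replicates 3 and 4.

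Counted over the 10 loci, gain and loss of whole regions were rare. Of 64 regions with a peak in at least 4 of the 8 libraries, P300KO_TET2KO against TET2KO gained 1 and lost 0, and percent called over the genome was 0.167% gained and 0.0358% lost. P300KO against WT gained and lost 0 of 57 (genome 0.0378% and 0.03%), TET2KO against WT 0 of 55 (0.0404% and 0.0202%) and P300KO_TET2KO against P300KO 0 of 66 (0.182% and 0.0856%). Under a looser rule of at least 3 of 4 libraries against at most 1 of 4, P300KO_TET2KO against TET2KO gained 6 of 72 regions and lost 0, where 2.98% and 1.31% of all regions did so. P300KO against WT gained 1 of 63 (genome 1.89% gained and 1.49% lost), TET2KO against WT 2 of 63 (1.63% and 1.41%) and P300KO_TET2KO against P300KO 4 of 70 (2.78% and 1.45%), and none of these lost any. Of the 6, 4 were intronic in Ezh2, 1 was intronic in Ezh1 and 1 lay beside Bap1. Their mean percentiles were between 9.01 and 28.6.

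Asxl1, a partner that activates Bap1, had its highest region counts in TET2KO. Its locus held 7, 9, 9 and 9 regions in the WT libraries and 8, 9, 8 and 9 in P300KO. TET2KO held 13, 9, 11 and 13, and P300KO_TET2KO held 7, 10, 8 and 9. TET2KO had the highest mean and overlapped with the others, each with a mean of 8.5, at 9 and 10. The difference of TET2KO from WT was 3 regions (log2 of regions + 1: 0.39, SE 0.12, limma adjusted p = 0.532), and that of P300KO_TET2KO from TET2KO was −3 regions (limma adjusted p = 0.614). With the strongest 50000 peaks the 2 differences were 0.25 and 0 regions, with regions in the gene body alone the former was 1.75, and with a −log10 q of at least 2 the latter was −0.5. Asxl2 held 4, 5, 9 and 10 regions in the WT libraries and 8, 6, 9 and 10 in P300KO. TET2KO held 5, 5, 10 and 10, and P300KO_TET2KO held 8, 8, 11 and 10. Its p300 effect was 1.5 regions (log2 of regions + 1: 0.30, SE 0.09, limma adjusted p = 0.367), with an exact permutation p of 0.0324. It was 0 regions with the strongest 50000 peaks, 2.75 in deposit set 1 alone and 0.25 in set 2 alone. The set 2 libraries held 9.88 regions at Asxl2 against 6.13 in set 1, the larger of these differences.

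Kmt2a held 9 ± 1.15 regions in P300KO, 10.5 ± 1.29 in WT, 10.3 ± 2.63 in TET2KO and 9 ± 2.94 in P300KO_TET2KO (SD, n = 4). Its p300 effect was −1.38 regions with a limma p of 0.0885 and a limma adjusted p of 0.588. The exact permutation p was 0.0309 and the adjusted permutation p was 0.908. In the remaining loci, Ezh1 held 5 to 10 regions per library, Eed 1 to 4, Suz12 2 to 4, Bmi1 6 or 7, Bap1 2 to 5 and Kdm6b 7 or 8, and 0 of the 6 had an unadjusted limma p under 0.05 in any contrast.

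Of the 10 loci, 0 passed the adjusted threshold in any contrast, where percent called over 17914 genes was 0.0112% for P300KO_TET2KO against TET2KO, 0% for P300KO against WT, 0.00558% for TET2KO against WT and 0% for P300KO_TET2KO against P300KO. It was 0.00558% for p300 loss, 0% for Tet2 loss and 0.00558% for the difference of p300 effects. At an unadjusted limma p under 0.05, P300KO_TET2KO against TET2KO gave 3 of 10 loci against 6.47% of all genes, and p300 loss over both backgrounds gave 3 of 10 against 9.41%. P300KO against WT gave 0 of 10 against 9.21%, TET2KO against WT 1 against 8.68%, P300KO_TET2KO against P300KO 1 against 6.03%, Tet2 loss 1 against 9.17% and the difference of p300 effects 2 against 5.22%. By the exact permutation test, p300 loss gave an unadjusted p under 0.05 at 3 of 10 loci against 4.98% of all genes and Tet2 loss at 0 against 4.2%. The 3 loci for p300 loss were Ezh2, Asxl2 and Kmt2a by permutation and Ezh2, Asxl1 and Asxl2 by limma.

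The promoters of further Polycomb and trithorax genes were read from the same lists. Of 54 further genes of these complexes, 54 had a promoter region in all 16 libraries, against 79.4% of coding genes with a promoter region. Their median percentile was 93.9, with 95.3 for 7 PRC2 partners, 91.0 for 22 PRC1 genes, 97.0 for 7 partners of Bap1 and 95.6 for 18 COMPASS and trithorax genes. Single promoters ran from 73.6 to 99.9, so the Bmi1 promoter at 77.6 lay near their lower end. By limma with Benjamini-Hochberg adjustment, 0 of the 54 promoters passed the threshold in any of the 7 contrasts, where 0% to 1.3% of all regions did. An unadjusted limma p under 0.05 was found for 10 of the 54 (18.5%) in TET2KO against WT, against 9.32% of all regions, and for 8 (14.8%) in P300KO against WT, against 14.1%. It was found for 7 (13%) with Tet2 loss against 11.4% and for 3 (5.56%) with p300 loss against 14.2%. P300KO_TET2KO gave 1 (1.85%) against TET2KO and 2 (3.7%) against P300KO, where all regions gave 6.25% and 7.34%, and the difference of p300 effects gave 4 (7.41%) against 4.65%.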

How the data were processed

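Per the labels and the methods, the authors sorted HSPCs, processed 50000 viable thawed cells per library by an Omni-type ATAC-seq protocol, trimmed reads with cutadapt 1.9.1, aligned them to mm10 with Bowtie2 2.2.6, removed duplicates, shifted reads for Tn5 and called peaks per library with MACS2 2.1.0. The deposited lists hold, per summit, the authors' fold enrichment (a ratio to local background), −log10 p and −log10 q. Summits of 1 interval were taken as 1 peak with the strongest summit. Peaks were merged at 1 bp overlap, and a region took the percentile of its strongest peak. Genes were from GENCODE M21, sequences from the GRCm38 reference (the mm10 assembly) of RefSeq. A promoter was within 1 kb of a coding start.

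limma 3.58.1 (R 4.3.3, with trend) was fitted to the log2 odds of the percentile of regions in all 16 libraries, and to log2 of regions per locus + 1 for genes with a mean of at least 1 region. All 16 libraries entered 1 fit with genotype and deposit set, at a threshold of 0.05. Contrasts share libraries. Each fit was also run on simulated data with planted changes, and the outcome is not reported here. Other tools were Python 3.11.15, numpy 2.4.6, pandas 2.3.3, pysam 0.24.0 and matplotlib 3.10.9.

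The members, lists and tests were chosen with earlier results of these data known. Named regions were the strongest promoter of each gene, strong shared regions, regions in 4 of 4 against 0 of 4 libraries, and the 3 smallest limma p per contrast. Windows at the Ezh2 intron and the Naa38 and Tmem88 promoter were chosen after seeing the data. Same-numbered replicates deviated together (correlations from 0.13 to 0.474 over regions), but within a deposit set the correlations ran from -0.143 to 0.0606. The labels do not tie a number to an animal. A site without a peak was not detected at that depth. The values of 2 further markers of mature cells are not reported here.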

Additional observations from a re-analysis of the deposited data

Results flagged for a closer look

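In groups of 4 libraries, 9 of 80 sets of values (promoter percentile or number of regions, per gene and genotype) held a library whose gap to the nearest other took up more of the group's range than Dixon's 95% critical value for 4 values allows. Chance does so in about 1 in 20 groups of continuous values, a rate that does not hold for 8 of the 9, which are small counts where the other 3 libraries tie and any single difference is enough. These libraries came from both deposit sets.

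For the promoter of Kdm6b, WT replicate 1 had a percentile of 90.01 and the other WT libraries had 93.92 to 94.45. For Asxl1, WT replicate 1 had 7 regions and the other WT libraries had 9 each. WT replicate 1 was also the library missing at 6 of the 9 regions of the 10 loci that lacked a peak in exactly 1 library.

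The others were steps of 1 region in counts that hardly vary. Suz12 had 3 regions in WT replicate 2 and in P300KO replicate 3 and 2 in the others of those genotypes. Bmi1 had 7 regions in WT replicate 2 and in P300KO_TET2KO replicate 3 and 6 in the others. Kdm6b had 8 regions in WT replicate 3, in P300KO replicate 1 and in TET2KO replicate 4 and 7 in the others.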

How the results depend on the processing

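Of the counts of called regions, loci and promoters and of gained or lost regions, 571 values under an alternative stayed within 1.5 times the reported count and 16 did not. Nearly all reported counts were 0, and a count that stayed 0 is among the 571. With few of all regions and genes called, such agreement says little about stability. In deposit set 2 alone, 2 regions were called for P300KO_TET2KO against TET2KO (the Naa38 and Tmem88 promoter, higher, and the Kdm6b start region, lower by 2.94 points on average, which is also the 1 promoter called), 1 for P300KO against WT and 1 for p300 loss (both the Naa38 and Tmem88 promoter). With percentiles among shared regions, 1 region was called for p300 loss, the same one, where 2.44% of all regions were. Deposit set 1 alone and every fit without 1 library gave 0 member regions, loci and promoters called in all 7 contrasts. With replicate number as a block in place of deposit set, 0 regions, 0 loci and 0 promoters of these genes were called in all 7 contrasts, and the limma adjusted p of the Naa38 and Tmem88 promoter for p300 loss was 0.193.

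For gained or lost regions in P300KO_TET2KO against TET2KO, the strongest 50000 peaks and a −log10 q of at least 2 each gave 0, and the looser rule gave 6. In the same looser count, P300KO against WT gave 1, TET2KO against WT 2 and P300KO_TET2KO against P300KO 4. Leaving out 1 library gave 1 to 2 regions for P300KO_TET2KO against TET2KO, where leaving out TET2KO replicate 4 raised the count. It gave 0 in every case for P300KO against WT, and 0 to 1 for TET2KO against WT, again without TET2KO replicate 4. For P300KO_TET2KO against P300KO it gave 0 to 2, with 1 without P300KO replicate 1 or 4 and 2 without P300KO_TET2KO replicate 1. The cause was not tested.

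The p300 effect on promoter percentile changed sign at 6 genes, all uncalled. Suz12 gave 0.138 points with a −log10 q of at least 2 and 0.138 in deposit set 1 alone, and -0.138 to 0.0631 without 1 library. Bmi1 gave 3.35 with that q, 0.96 among shared regions and 1.30 in set 1 alone, and -1.39 to 0.885 without 1 library. Asxl1 gave -0.223 in set 2 alone and -0.0582 to 0.287 without 1 library, and Asxl2 -0.181 to 0.0143. Bap1 gave 0.421 with that q, 0.0341 in set 2 alone and -0.482 to 0.014 without 1 library. Kdm6b gave 0.436 with that q and 0.368 with the promoter within 3 kb of a start. No direction should be read from these promoter differences.

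Without 1 library, the Ezh2 difference of P300KO_TET2KO from TET2KO ran from 4.73 to 5.91 regions. No read depths, reads or expression values were used here, so a weak region missing from a list may be a region not detected.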
